A study of Mus musculus with 30 samples.

Results

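The 9 genes described here encode hormones that the liver secretes and proteins of the activin system: the hormone Fgf21, the chemotaxin Lect2, the angiopoietin-like proteins Angptl6 and Angptl8, the activin subunits Inhba, Inhbc and Inhbe, the activin antagonist Fst and the selenium carrier Selenop. They were chosen by gene symbol, with earlier results of these data known, and all 9 were found among the 55450 genes of the count table. Liver mRNA of male mice on a diet high in fat, cholesterol and fructose (HFCFD) was sequenced in 3 experiments that the study's design text calls separate batches, with 5 Cebpa fl/fl mice and 5 mice lacking Cebpa in hepatocytes in each, 30 libraries in all. Cebpa encodes CEBPA, a transcription factor that maintains hepatocyte gene expression. In HFCFD2W, Cebpa fl/fl and Cebpa ΔHep mice were fed the diet for 2 weeks without tamoxifen, and the deletion was made by a constitutive Cre under the albumin promoter. The HFCFD8W+T10D mice, Cebpa fl/fl or Cebpa ΔHep,ERT2, had 8 weeks of diet with tamoxifen for 10 days. In HFCFD12W+T10W they had 12 weeks of diet and then 10 further weeks of the same diet with tamoxifen. There Cre was fused to ERT2, driven by albumin, and the Cebpa fl/fl mice received tamoxifen as well. All 6 groups carried the floxed Cebpa alleles, the controls without Cre, on a background crossed to C57BL/6N. The ages of the mice are not given in the sources used here. Because the experiments differ in Cre, diet time, tamoxifen and batch together, these cannot be told apart where groups of different experiments are compared. The knockout groups are called so below for both strains.

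Hepatokines are proteins that the liver releases into blood to act on other tissues. FGF21 is a fasting and stress hormone that signals through FGF receptors with the co-receptor beta-klotho (Klb), and its gene is induced by PPARα and by the integrated stress response. Activins are dimers of inhibin beta chains, Inhba giving activin A and the liver-enriched Inhbc and Inhbe giving activins C and E. Follistatin (Fst) binds and blocks activin A. LECT2 attracts neutrophils and binds the receptor Met, ANGPTL8 regulates lipoprotein lipase, ANGPTL6 is a circulating angiopoietin-like factor, and selenoprotein P carries selenium from liver to other organs.

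The regions just upstream of 5 of these genes are shown because the deleted protein binds DNA, and because the stress response reaches Fgf21 through an element joining C/EBP and ATF letters. Each is the 250 bases before the start of transcription in RefSeq on GRCm38.p6, written 5′ to 3′ on the strand of the gene. Capitals mark matches on either strand to TTNNGCAA, a C/EBP pattern, or to TGATGNAA, a C/EBP-ATF response element pattern (CARE), and no match overlaps another in these windows. The 5 comprise the neighbours Inhbe at chr10:127351849-127352098 (minus strand) and Inhbc at chr10:127370549-127370798 (minus strand), then Fgf21 at chr7:45615491-45615740 (minus strand), Angptl8 at chr9:21835260-21835509 (plus strand) and Inhba at chr13:16011601-16011850 (plus strand).
Inhbe: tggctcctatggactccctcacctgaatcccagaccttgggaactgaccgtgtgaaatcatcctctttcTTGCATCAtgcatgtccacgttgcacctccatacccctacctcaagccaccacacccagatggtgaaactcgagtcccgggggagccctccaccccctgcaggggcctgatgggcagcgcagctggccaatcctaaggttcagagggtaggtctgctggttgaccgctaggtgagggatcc
Inhbc: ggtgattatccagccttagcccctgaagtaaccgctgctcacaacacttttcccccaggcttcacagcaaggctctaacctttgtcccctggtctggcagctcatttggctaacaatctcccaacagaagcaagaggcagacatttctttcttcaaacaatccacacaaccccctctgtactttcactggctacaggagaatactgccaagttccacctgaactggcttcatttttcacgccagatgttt
Fgf21: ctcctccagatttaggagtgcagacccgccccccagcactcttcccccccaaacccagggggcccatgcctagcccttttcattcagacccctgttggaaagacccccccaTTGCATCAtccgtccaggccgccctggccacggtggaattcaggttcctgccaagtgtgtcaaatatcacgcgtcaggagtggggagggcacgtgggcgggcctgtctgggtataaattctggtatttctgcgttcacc
Angptl8: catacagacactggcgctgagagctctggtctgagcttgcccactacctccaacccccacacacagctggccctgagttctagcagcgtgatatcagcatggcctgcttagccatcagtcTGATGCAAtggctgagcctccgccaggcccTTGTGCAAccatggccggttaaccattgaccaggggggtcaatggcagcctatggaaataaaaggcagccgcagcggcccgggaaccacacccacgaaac
Inhba: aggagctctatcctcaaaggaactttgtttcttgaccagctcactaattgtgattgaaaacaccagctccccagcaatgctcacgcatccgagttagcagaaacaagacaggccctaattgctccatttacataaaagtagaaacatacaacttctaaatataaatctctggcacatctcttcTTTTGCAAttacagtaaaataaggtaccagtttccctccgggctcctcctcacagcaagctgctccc
Of the 9 genes, 8 had a window in the promoter table, which does not list Fst. TTNNGCAA was found upstream of 2 of them, Angptl8 (TTGTGCAA, 100 bases before the start) and Inhba (TTTTGCAA, 67 bases before), and is present in 9.56% of all 32851 windows of this length. TGATGNAA was found upstream of 3, as TTGCATCA in Fgf21 (139 bases before) and Inhbe (181 bases before) and as TGATGCAA in Angptl8 (130 bases before), and is present in 3.45% of all windows. The windows of Inhbc, Lect2, Angptl6 and Selenop hold neither set of letters. These matches describe sequence and are not binding sites.

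In GENCODE M21 on GRCm38, Inhbe (ENSMUSG00000047492.5) spans positions 127348857 to 127354411 of chromosome 10 and Inhbc (ENSMUSG00000025405.9) positions 127356322 to 127370431, both on the minus strand with 1910 bases between them. Fgf21 lies on chromosome 7 from 45613886 to 45615490 and Lect2 on chromosome 13 from 56542464 to 56548502. Chromosome 13 also holds Inhba, from 16011851 to 16031621, and Fst, from 114452290 to 114458951. Chromosome 9 holds Angptl6, from 20873808 to 20879727, and Angptl8, from 21835510 to 21837347, the latter within Dock6 on the opposite strand without shared exonic bases. Selenop lies on chromosome 15 from 3268547 to 3280508. Opposite-strand genes share 265 of the 1582 exonic bases of Angptl6 (A230050P20Rik), 268 of the 1859 of Inhbc (Gm47200), 115 of the 4589 of Fst (Gm47040) and 439 of the 2842 of Selenop (Ccdc152). The kit keeps strand, but the strand setting of the counting is not given in the sources used here, so reads of these pairs may be mixed.

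Library totals ran from 7996123 to 10257347 counts. Cebpa itself, read first as a check of the labels, was left at 2.68%, 11.9% and 18.6% of the Cebpa fl/fl mean in the 3 experiments in the order above, without overlap between genotypes in any of them. Summed levels of 8 hepatocyte markers overlapped by genotype in HFCFD2W. They lay below the Cebpa fl/fl range in HFCFD8W+T10D, at 50400 to 105800 CPM (counts scaled by library size) in knockout against 110700 to 135000 CPM, and in HFCFD12W+T10W, at 47100 to 55780 CPM against 95550 to 123400 CPM. In HFCFD8W+T10D the 8 cholangiocyte markers summed to 159.7 to 367 CPM in knockout against 49.17 to 69.41 CPM in Cebpa fl/fl livers. In HFCFD12W+T10W the cholangiocyte markers summed to 759.3 to 1060 CPM against 47.17 to 63.6 CPM, 8 stellate cell and myofibroblast markers to 1133 to 1416 CPM against 261.7 to 337.2 CPM, and 8 macrophage markers to 917.7 to 1118 CPM against 283.6 to 811.8 CPM. No marker was at 0 throughout a group. Under the trimmed mean of M values (TMM), the scaling used here, the factors of the HFCFD12W+T10W libraries were 1.29 to 1.38 in knockout and 0.961 to 1.03 in Cebpa fl/fl livers. With library totals alone the median log2 fold change of all genes moved to 0.0287, 0.1947 and 0.3837 in the same order, so fold changes are given relative to the TMM scale, and tests of the 9 genes that depend on it are named.

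TPM values, in which counts are scaled by transcript length and library size, differed greatly among the 9 genes. Selenop had the highest level, with a mean of 5952 TPM over the 30 livers and a range of 3933 to 8386 TPM, and Lect2 followed at 208 TPM (80.5 to 418). Inhbc averaged 31.6 TPM, Angptl8 16 TPM, Inhbe 9.50 TPM, Angptl6 6.46 TPM, Fgf21 5.26 TPM, Fst 1.64 TPM and Inhba 0.931 TPM. Thus the most abundant activin chain per length was Inhbc and the least abundant was Inhba. Within a gene the spread was widest for Fgf21, from 0.17 to 15 TPM, and Angptl8, from 3.56 to 80.8 TPM.

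**Figure D1:**
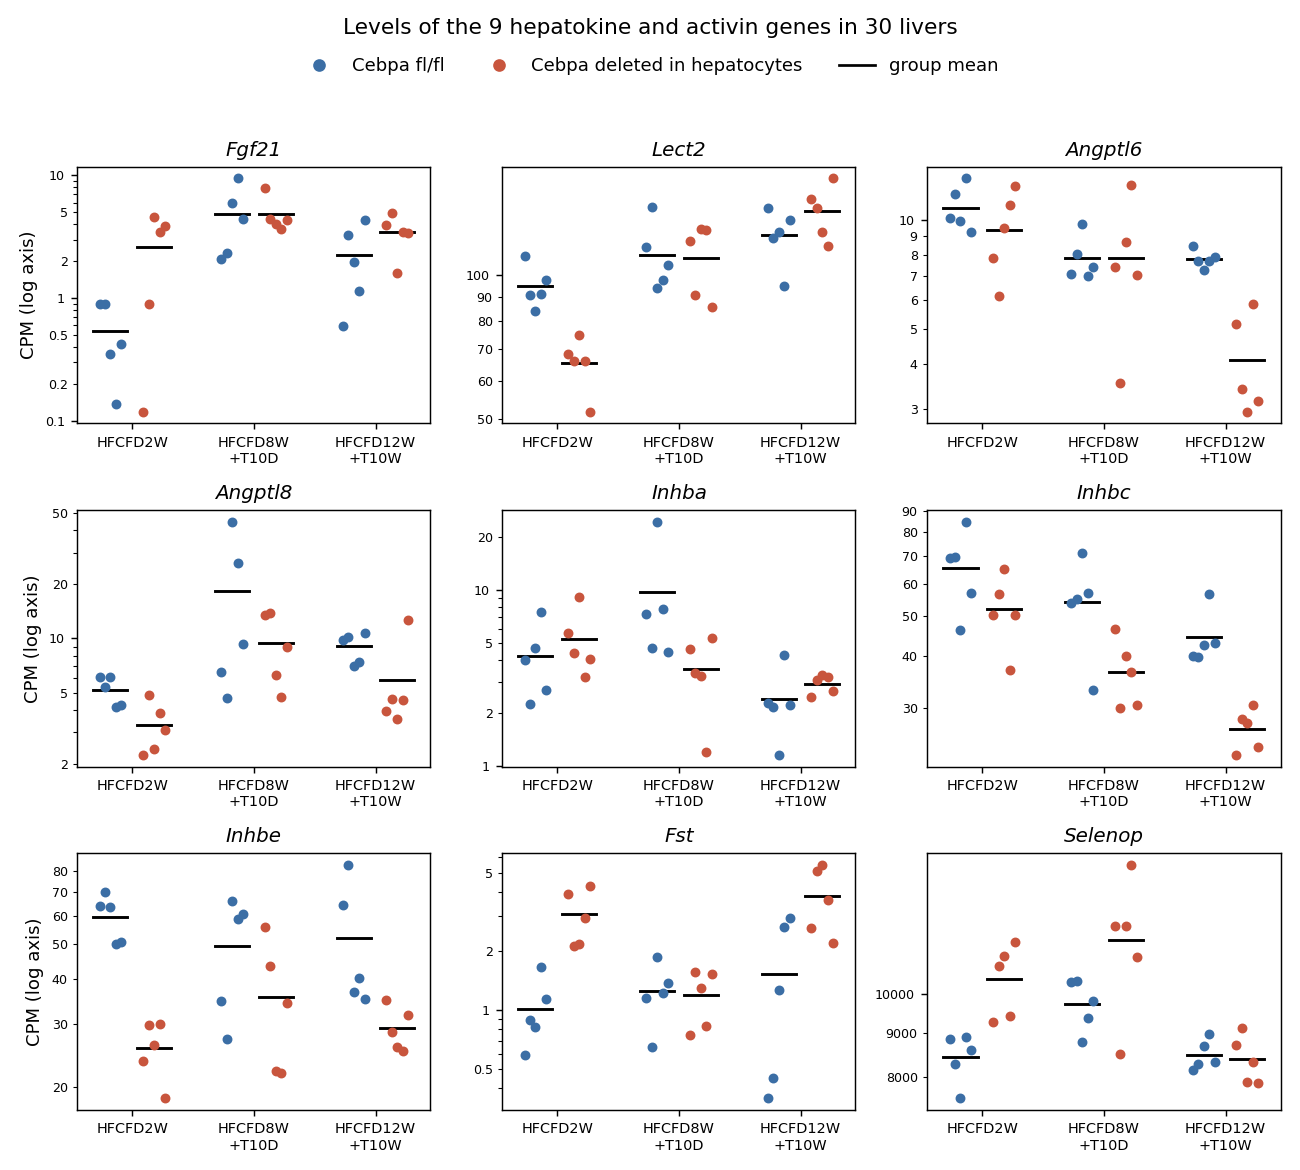
Levels of the 9 genes in 30 livers, in CPM on log axes, 1 panel per gene and 1 point per liver, with Cebpa fl/fl in blue, knockout in red and the group mean as a bar. Inhbe in HFCFD2W shows separate groups, with knockout livers between 18.7 and 30.03 CPM and Cebpa fl/fl livers between 50.1 and 69.9 CPM.

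Each experiment asks how loss of hepatocyte Cebpa altered these transcripts. After 2 weeks of diet with constitutive loss, 4 of the 8 genes tested passed an adjusted p of 0.05 (edgeR quasi-likelihood test, Benjamini-Hochberg over all genes tested), where 16.7% of all genes passed. Fst and Selenop were higher, Inhbe and Lect2 were lower, and the groups did not overlap for any of these 4, against 12.5% of all genes without overlap. Of the 4, Fst and Inhbe also changed more than 2-fold, as 3.07% of all genes did. In HFCFD8W+T10D, 0 of 9 passed in the edgeR fit of that experiment and 0 had groups without overlap, where 17.1% of all genes passed, 6.1% also changed over 2-fold and 11.5% did not overlap. Unadjusted p was under 0.05 for 2 of the 9, Inhba and Inhbc. Both passed in the edgeR fit of all 6 groups, where 27.1% of all genes passed, in edgeR without the filter for low counts and in DESeq2, and of the 2 only Inhba changed over 2-fold in these. In HFCFD12W+T10W, 4 of 9 passed, Inhbc, Inhbe and Angptl6 lower and Fst higher, where 51.1% of all genes passed, so the share of these genes was not above the background. Only Fst exceeded 2-fold there, as 17.7% of all genes did. In bulk liver, fewer cells of a type and less RNA per cell cannot be told apart.

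**Figure D2:**
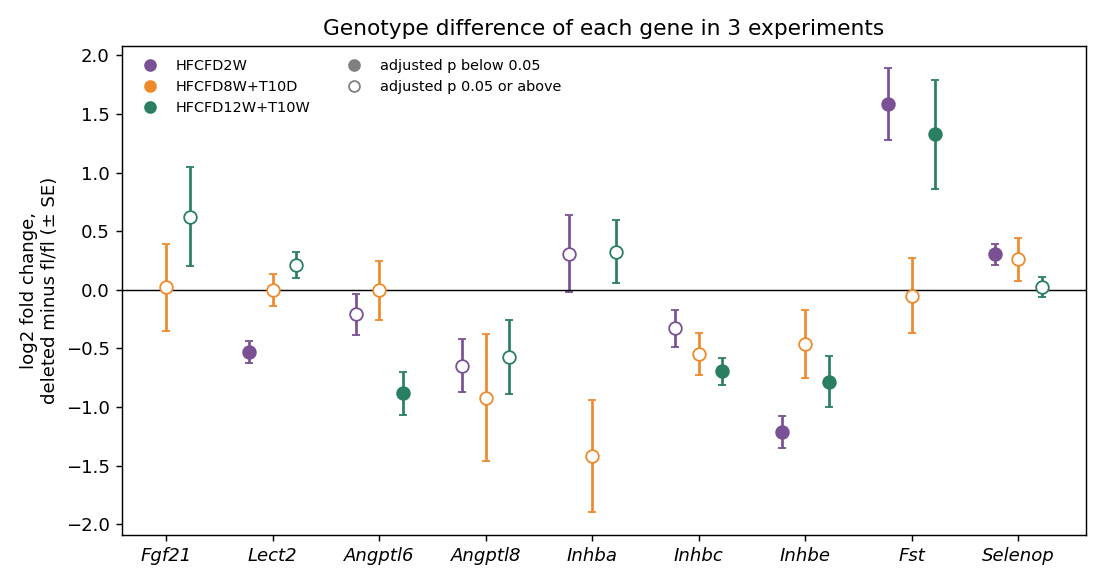
Log2 fold change of knockout against Cebpa fl/fl livers with its standard error, by gene and experiment, filled where the adjusted p was below 0.05. Inhbe lay below 0 in all 3 experiments and Fst above 0 in HFCFD2W and HFCFD12W+T10W, and Fgf21 has no point in HFCFD2W because its counts there were under the filter for low counts.

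Inhbe, the chain of activin E, had the largest decrease of the set in HFCFD2W. Its levels were 63.8, 69.9, 63.4, 50.1 and 50.9 CPM in the Cebpa fl/fl livers and 23.7, 29.7, 26.2, 30.03 and 18.7 CPM in the Cebpa ΔHep livers. Every knockout liver was below every control. The log2 fold change was -1.21 with a standard error (SE) of 0.13 and an adjusted p of 8.59e-05. HFCFD8W+T10D gave 34.8, 27.3, 66.3, 58.9 and 60.6 CPM in Cebpa fl/fl and 55.9, 43.7, 22.2, 21.9 and 34.4 CPM in Cebpa ΔHep,ERT2 livers. Both genotypes held high and low livers there and overlapped, with a log2 fold change of -0.46 (SE 0.29, adjusted p = 0.311). In HFCFD12W+T10W the values were 64.3, 83.3, 36.9, 40.4 and 35.1 CPM in Cebpa fl/fl and 35.0, 28.5, 25.9, 25.3 and 31.7 CPM in Cebpa ΔHep,ERT2 livers. The groups did not overlap, as for 39.1% of all genes in that experiment, but the gap was narrow and lay between Cebpa fl/fl replicate 5 and knockout replicate 1. Inhbe fell by 0.78 there on the log2 scale (SE 0.22, adjusted p = 0.00972). With library totals alone the value was -0.42 and the adjusted p 0.127, so that result rests on the scaling, and in TPM, which carry no TMM factor, the genotypes overlapped at 8.35 to 20.3 and 7.7 to 10.7 TPM. The difference of the genotype effects of Inhbe between HFCFD8W+T10D and HFCFD2W was 0.74 with an adjusted p of 0.186.

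Inhbc, the neighbouring chain that gives activin C, was lower after long induced loss. In HFCFD12W+T10W it stood at 39.9, 39.9, 42.5, 56.7 and 43.0 CPM in Cebpa fl/fl livers and at 23, 28.1, 27.4, 30.5 and 24.1 CPM in knockout livers. No knockout liver reached the lowest control, and the log2 fold change was -0.70 (SE 0.11, adjusted p = 0.000227). The decrease was smaller with library totals alone, -0.32 with an adjusted p of 0.0165, and in TPM the genotypes overlapped, at 28.6 to 40.1 and 21.9 to 29.2 TPM. In HFCFD2W, Inhbc ran from 46.2 to 84.9 CPM with a median of 69.3 CPM in Cebpa fl/fl livers and from 37.1 to 65.1 CPM with a median of 50.4 CPM in knockout livers. These overlapped, at a log2 fold change of -0.33 (SE 0.16, adjusted p = 0.177). HFCFD8W+T10D gave 53.9, 55, 71.1, 57.1 and 33.2 CPM against 46.5, 29.9, 40.1, 36.5 and 30.5 CPM in knockout livers. All Cebpa fl/fl livers but replicate 5 were above every knockout liver, and the log2 fold change of -0.54 (SE 0.18) had an adjusted p of 0.0543. It passed in the fit of all 6 groups (-0.56, adjusted p = 0.0147), without the filter for low counts (-0.56, adjusted p = 0.0363) and in DESeq2 (-0.55, adjusted p = 0.0302). Leaving out Cebpa fl/fl replicate 5 gave -0.68 with an adjusted p of 0.0104, and leaving out knockout replicate 1 gave -0.65 with 0.0363. Across groups Inhbc was lower in Cebpa fl/fl livers of HFCFD12W+T10W than of HFCFD2W (log2 difference -0.56, adjusted p = 0.0106, where 39.1% of all genes passed).

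The balance of the paralogs within a liver does not depend on scaling between libraries. As log2 of the Inhbc to Inhbe ratio of TPM, with 0.1 added to each, it was 2.63 ± 0.44 (SD, n = 5) in Cebpa ΔHep and 1.75 ± 0.43 (SD, n = 5) in Cebpa fl/fl livers of HFCFD2W. The difference of 0.88 had an exact two-sided permutation p of 0.0159 over 252 arrangements, whose smallest possible p is 0.00794. This difference kept its side of 0.05 when each liver was left out in turn, from 0.73 to 1.05. In HFCFD8W+T10D the ratio was 1.75 ± 0.63 against 1.79 ± 0.71 (exact permutation p = 0.913, n = 5), and in HFCFD12W+T10W 1.5 ± 0.36 against 1.48 ± 0.67 (exact permutation p = 0.944, n = 5). A shift of the ratio was thus found in HFCFD2W and was not detectable in the other two experiments, and the differences between experiments were not tested for the ratio. The 2 annotations place the start of Inhbe 2563 bases apart, and its GENCODE model of 5319 exonic bases sets the TPM used, so the level of the ratio depends on that model, and whether the difference between genotypes does was not tested.

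**Figure D3:**
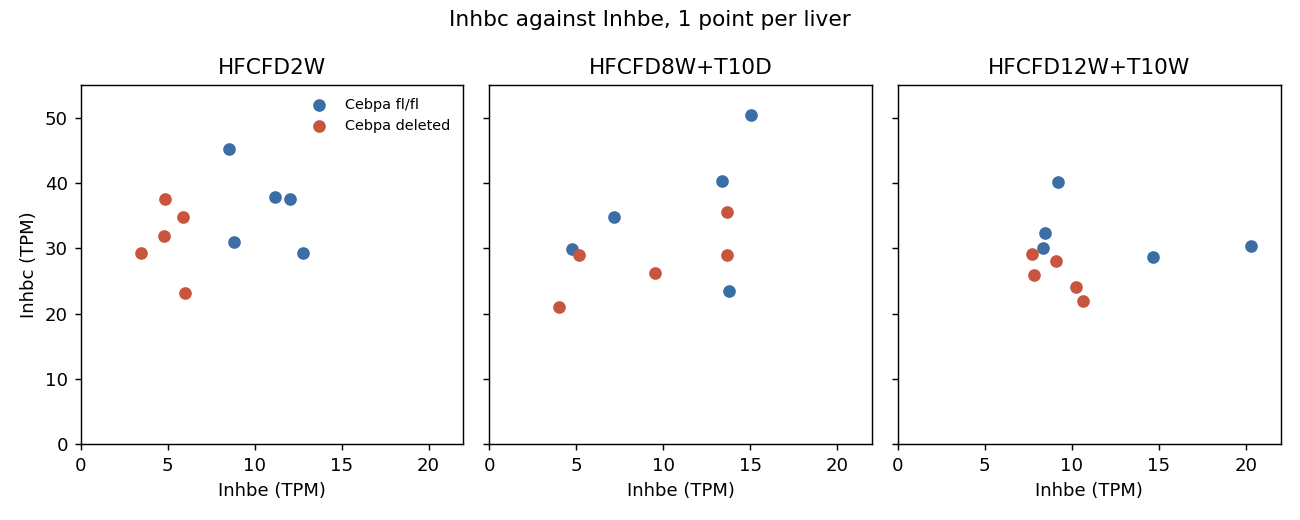
Inhbc against Inhbe, both in TPM on linear axes, 1 point per liver and 1 panel per experiment, with Cebpa fl/fl in blue and knockout in red. In HFCFD2W the knockout livers lie at 3.48 to 5.99 TPM of Inhbe and the Cebpa fl/fl livers at 8.51 to 12.8 TPM, while Inhbc overlaps.

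Inhba, the chain of activin A, was the scarcest of the 9 genes per length. In HFCFD8W+T10D it stood at 7.30, 4.66, 24.4, 7.82 and 4.43 CPM in Cebpa fl/fl livers and at 4.59, 3.37, 3.25, 1.19 and 5.32 CPM in knockout livers. Cebpa fl/fl replicate 3 was far above the others, and the groups overlapped. The log2 fold change of -1.42 (SE 0.48) had an adjusted p of 0.0585, and without that replicate it was -0.75 with an adjusted p of 0.158. It passed in the fit of all 6 groups (-1.43, adjusted p = 0.00798), without the filter for low counts (-1.44, adjusted p = 0.0281) and in DESeq2 (-1.45, adjusted p = 0.0138). Among fits that left out 1 liver it passed without Cebpa fl/fl replicate 2 (-1.60, edgeR adjusted p = 0.0457), Cebpa fl/fl replicate 5 (-1.61, 0.0409) or knockout replicate 5 (-1.62, 0.0484). Inhba ran from 2.23 to 7.45 CPM in Cebpa fl/fl and from 3.19 to 9.06 CPM in knockout livers of HFCFD2W (log2 fold change 0.31, SE 0.33, adjusted p = 0.566). In HFCFD12W+T10W it ran from 1.15 to 4.25 CPM and from 2.44 to 3.29 CPM (0.33, SE 0.27, adjusted p = 0.335). Leaving out Cebpa fl/fl replicate 4 gave 0.61 with an adjusted p of 0.0354, and library totals alone gave 0.70 with 0.0348. The genotype effect on Inhba was lower in HFCFD8W+T10D than in HFCFD2W by 1.74 on the log2 scale (interaction -1.74, SE 0.58, adjusted p = 0.0491, where 11.2% of all genes passed). It did not pass on library totals alone (-1.56, adjusted p = 0.0870) or with upper quartile scaling (-1.70, adjusted p = 0.0559), nor in 14 of the 20 fits that left out 1 liver. Those were without Cebpa fl/fl replicates 3 or 4 or knockout replicates 1, 2, 3 or 4 of HFCFD8W+T10D, or Cebpa fl/fl replicates 1, 2, 3 or 5 or knockout replicates 2, 3, 4 or 6 of HFCFD2W, and the value without Cebpa fl/fl replicate 3 of HFCFD8W+T10D was -1.07 with an adjusted p of 0.154.

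Fst, which encodes the activin antagonist follistatin, was higher in knockout livers in 2 experiments at low counts. Its levels in HFCFD2W were 0.594, 0.891, 0.816, 1.66 and 1.14 CPM in Cebpa fl/fl and 3.9, 2.13, 2.16, 2.94 and 4.30 CPM in Cebpa ΔHep livers. Each knockout liver exceeded each control, with a log2 fold change of 1.58 (SE 0.31, adjusted p = 0.00386), while in TPM they met at 0.47 to 1.3 in Cebpa fl/fl and 1.23 to 3.0 in knockout livers. HFCFD8W+T10D gave 1.16, 0.647, 1.85, 1.22 and 1.38 CPM against 0.749, 1.56, 1.30, 0.830 and 1.52 CPM in knockout livers. The genotypes were mixed there, at a log2 fold change of -0.05 (SE 0.32, adjusted p = 0.935) that was 0.14 on library totals alone. In HFCFD12W+T10W the levels were 0.356, 0.453, 1.26, 2.64 and 2.93 CPM in Cebpa fl/fl and 2.62, 5.08, 5.49, 3.65 and 2.19 CPM in knockout livers. Cebpa fl/fl replicates 4 and 5 lay within the knockout range in CPM. In TPM the genotypes did not overlap, at 0.37 to 2.28 in Cebpa fl/fl and 2.57 to 5.34 in knockout livers. The log2 fold change was 1.32 (SE 0.46, adjusted p = 0.0295). It lost the call without Cebpa fl/fl replicate 1, 2 or 3 or knockout replicate 2 or 3, with values of 1.06 to 1.24 and adjusted p of 0.0593 to 0.0704. The interaction between HFCFD8W+T10D and HFCFD2W was -1.65 with an adjusted p of 0.0772, so these experiments were not shown to differ. That between HFCFD12W+T10W and HFCFD8W+T10D passed without Cebpa fl/fl replicate 5 of HFCFD12W+T10W (1.77, edgeR adjusted p = 0.0478). Among knockout livers, Fst was higher in HFCFD12W+T10W than in HFCFD8W+T10D (log2 difference 1.64, adjusted p = 0.00168, where 27.7% of all genes passed). The sums of cholangiocyte markers were higher in knockout livers too, without overlap, at 384.1 to 669.3 CPM against 41.85 to 86.79 CPM in HFCFD2W, and their part in the Fst result was not tested.

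Receptors, SMADs and the other ligands and antagonists of the pathway were read as lists. Of 18 activin and BMP receptors and SMADs, 17 were tested in HFCFD2W, where 16.7% of all genes passed. Their median log2 fold change was -0.1126 against 0.0073 for all genes, and 4 fell while 0 rose. They were the inhibitory Smad6 (-1.53, SE 0.40), Acvr1b, the type I receptor of activins (-0.57), Acvr1 (-0.51) and Smad5 (-0.30). In HFCFD8W+T10D, where 17.1% of all genes passed, 1 rose, Acvrl1 (0.74), and 1 fell, Acvr2a (-0.34), a type II receptor of activins. In HFCFD12W+T10W 6 of 16 rose and 1 fell, where 51.1% of all genes passed, so the share of the list was not above the background, with a median of 0.1604 against 0.0129 for all genes. Those with the largest changes were Acvrl1 (1.27), Tgfbr1 (0.93), Tgfbr2 (0.91) and, lower, Acvr2a (-0.50, adjusted p = 0.000342). Of 10 other activin subunits and antagonists, 5 were tested in HFCFD2W, where the activin chain Inhbb rose (1.58, SE 0.30). In HFCFD12W+T10W 3 of 6 rose: Fstl3 (3.40, SE 0.61) and Fstl1 (2.83, SE 0.13), relatives of follistatin, and the pseudoreceptor Bambi (0.94). The stellate cell markers, which rose for 8 of 8 genes in that experiment, moved with them, and their part was not tested.

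Fgf21, the liver hormone of fasting and stress, was near the detection limit in HFCFD2W. Its Cebpa fl/fl livers held 6, 6, 3, 1 and 3 counts (0.890, 0.891, 0.350, 0.138 and 0.426 CPM) and its knockout livers 1, 8, 34, 27 and 29 counts (0.118, 0.898, 4.6, 3.45 and 3.89 CPM). Knockout replicates 4, 5 and 6 stood above every control, while replicate 3 was level with the highest control and replicate 2 was below all of them. The gene was under the filter of that experiment, and in the fit of all 6 groups the log2 fold change was 2.24 (SE 0.70, adjusted p = 0.0319, where 13.1% of all genes passed). The call was lost without Cebpa fl/fl replicate 3, 4 or 5 or knockout replicate 4, 5 or 6, with values of 1.93 to 2.18 and adjusted p of 0.0658 to 0.0896. In HFCFD8W+T10D, levels ran from 2.09 to 9.45 CPM in Cebpa fl/fl and from 3.68 to 7.96 CPM in knockout livers (log2 fold change 0.02, SE 0.37, adjusted p = 0.979). In HFCFD12W+T10W they ran from 0.594 to 4.34 CPM and from 1.6 to 4.9 CPM (0.62, SE 0.42, adjusted p = 0.234). The interaction between HFCFD8W+T10D and HFCFD2W was -2.23 (adjusted p = 0.0843), and it passed in DESeq2 (-2.25, adjusted p = 0.0429) and without knockout replicate 2 of HFCFD2W (-2.55, adjusted p = 0.0292). Among Cebpa fl/fl livers alone Fgf21 was higher in HFCFD8W+T10D than in HFCFD2W by 3.18 on the log2 scale (SE 0.65, adjusted p = 0.000232), where 43.6% of all genes passed, and in HFCFD12W+T10W than in HFCFD2W by 2.10 (SE 0.70, adjusted p = 0.0183).

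Genes of the FGF21 receptor complex and of the inputs to Fgf21 were read as lists. Klb, the co-receptor, had a log2 fold change of -0.67 in HFCFD2W (SE 0.12, adjusted p = 0.0028) and -0.96 in HFCFD12W+T10W (SE 0.13, adjusted p = 5.49e-05), and 0.21 with an adjusted p of 0.486 in HFCFD8W+T10D. Of the 5 genes of the receptor complex, Fgfr2 also fell in HFCFD2W (-1.17, SE 0.19), where 16.7% of all genes passed. In HFCFD8W+T10D 0 of the 5 passed, where 17.1% of all genes did. In HFCFD12W+T10W, where 51.1% of all genes passed, 2 of the 5 rose, Fgfr3 (1.53) and Fgfr1 (0.98), and 1 fell, Klb. Of 15 integrated stress response genes, 8 were tested in HFCFD2W, where 16.7% of all genes passed. Ppp1r15a (0.91), Sesn2 (0.59) and Atf4 (0.46) rose there while the pseudokinase Trib3 (-1.26, SE 0.27) and Cth (-0.31) fell. In HFCFD8W+T10D, where 17.1% of all genes passed, 1 of 11 rose, Sesn2 (0.71), and 1 fell, Cth (-0.77). HFCFD12W+T10W, where 51.1% of all genes passed, had 4 of 12 higher and 2 lower. The higher were the serine synthesis enzymes Phgdh (2.74) and Psat1 (2.22) with Atf3 (2.09) and Nupr1 (1.64), and the lower Chac1 (-1.28) and Cth (-0.84). PPARα target genes, another input to Fgf21, had 0 of 12 lower in HFCFD2W, where 2 rose, among them Fabp1 (0.31). In HFCFD8W+T10D 0 rose and 4 fell, where 17.1% of all genes passed. In HFCFD12W+T10W 0 rose and 9 fell, where 51.1% of all genes passed and 23.8% fell. The median of these 12 genes was -0.6193 in HFCFD12W+T10W against 0.0129 for all genes. Cyp4a14, a fatty acid hydroxylase, had log2 fold changes of -2.31 and -1.52 in these experiments in turn, the thioesterase Acot1 -1.21 and -1.78, and Ppara itself -0.60 and -0.93.

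Lect2, the neutrophil chemotaxin, was lower in knockout livers of HFCFD2W, and in the other experiments it did not pass on the TMM scale without a replicate block. It stood at 109.5, 90.8, 84.1, 91.1 and 97.8 CPM in Cebpa fl/fl and at 68.4, 66.1, 75.0, 65.9 and 51.7 CPM in Cebpa ΔHep livers. The groups were apart, and the log2 fold change was -0.53 (SE 0.10, adjusted p = 0.00279). HFCFD8W+T10D ran from 94.1 to 138 CPM in Cebpa fl/fl and from 85.5 to 125 CPM in knockout livers, at a log2 fold change of -0.00 (SE 0.14, adjusted p = 0.994) that was 0.17 on library totals alone. In HFCFD12W+T10W the range was 94.6 to 138 CPM against 115 to 159 CPM (0.21, SE 0.11, adjusted p = 0.130), and it passed with upper quartile scaling (0.29, adjusted p = 0.0496) and on library totals alone (0.58, adjusted p = 0.00126). In TPM the genotypes did not overlap there, at 177 to 268 in Cebpa fl/fl and 299 to 418 in knockout livers. The effect differed between HFCFD12W+T10W and HFCFD2W, with an interaction of 0.70 (SE 0.18, adjusted p = 0.00359, where 30.7% of all genes passed), and this held when each liver was left out in turn, from 0.62 to 0.78. Between HFCFD8W+T10D and HFCFD2W it was 0.51 with an adjusted p of 0.0574, and it passed with upper quartile scaling (0.57, adjusted p = 0.0367), on library totals alone (0.68, adjusted p = 0.00597) and in DESeq2 (0.53, adjusted p = 0.0392). It also passed without knockout replicate 2 or 5 or Cebpa fl/fl replicate 2 of HFCFD8W+T10D, or Cebpa fl/fl replicate 3 or knockout replicate 4 of HFCFD2W, at 0.55 to 0.61 with adjusted p of 0.0217 to 0.0490. Knockout livers of HFCFD12W+T10W had more Lect2 than those of HFCFD2W by 1.05 on the log2 scale (adjusted p = 4.6e-08, where 60% of all genes passed), and knockout livers of HFCFD8W+T10D exceeded those of HFCFD2W by 0.73 (adjusted p = 2.18e-05, where 49.8% passed). The knockout livers of HFCFD12W+T10W and HFCFD8W+T10D differed by 0.32 (adjusted p = 0.0508). Lect2 of Cebpa fl/fl livers in HFCFD12W+T10W exceeded that in HFCFD2W by 0.36 (adjusted p = 0.0247). Of 3 receptors of LECT2, 2 were tested, and Met fell in each experiment by 0.30, 0.49 and 0.97 on the log2 scale in turn (adjusted p = 0.0341, 0.0105 and 7.27e-05). The other, Tie1, did not pass in any experiment (0.40 in HFCFD2W, adjusted p = 0.0666).

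Of the angiopoietin-like genes Angptl6 and Angptl8, Angptl6 passed in HFCFD12W+T10W and was lower in knockout livers. It stood at 8.44, 7.70, 7.24, 7.69 and 7.88 CPM in Cebpa fl/fl and at 5.14, 3.42, 2.96, 5.84 and 3.16 CPM in knockout livers of HFCFD12W+T10W. Controls lay close together and above every knockout liver, and the log2 fold change was -0.88 (SE 0.19, adjusted p = 0.00156), or -0.52 with an adjusted p of 0.0234 on library totals. In TPM the genotypes overlapped, at 6.17 to 7.29 in Cebpa fl/fl and 3.35 to 6.74 in knockout livers. In HFCFD2W Angptl6 ran from 9.22 to 13 CPM and from 6.17 to 12.4 CPM (-0.21, SE 0.17, adjusted p = 0.449). In HFCFD8W+T10D it ran from 7.01 to 9.73 CPM and from 3.54 to 12.5 CPM (-0.00, SE 0.25, adjusted p = 0.993), where knockout replicate 2 was lowest and replicate 4 highest of all 10 livers. The interaction between HFCFD12W+T10W and HFCFD8W+T10D was -0.91 with an adjusted p of 0.0659, and it passed without knockout replicate 2 of HFCFD8W+T10D (adjusted p = 0.00807) or knockout replicate 4 of HFCFD12W+T10W (adjusted p = 0.0381), at -1.09 to -1.05. That between HFCFD12W+T10W and HFCFD2W passed without knockout replicate 4 of HFCFD12W+T10W or knockout replicate 3 of HFCFD2W, at -0.85 to -0.84 with adjusted p of 0.0449 to 0.0456. With all livers, no gene of the set passed the interaction between HFCFD12W+T10W and HFCFD8W+T10D in edgeR, where 10.5% of all genes did, while 3 of them, Angptl6, Inhba and Fst, had an unadjusted p under 0.05 and DESeq2 passed 1, Inhba. Inhba also passed it in edgeR without Cebpa fl/fl replicate 2 or 5 or knockout replicate 5 of HFCFD8W+T10D, or Cebpa fl/fl replicate 4 of HFCFD12W+T10W, at 1.88 to 2.04 with adjusted p of 0.0378 to 0.0459.

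Angptl8, an insulin-responsive regulator of lipoprotein lipase, did not pass with all livers in any experiment when fitted without a replicate block. Its levels in HFCFD12W+T10W were 9.86, 10.2, 7.01, 7.35 and 10.7 CPM in Cebpa fl/fl and 3.92, 4.62, 3.55, 4.56 and 12.6 CPM in knockout livers. Knockout replicate 5 was above every control while the others were below every control, and the log2 fold change of -0.57 (SE 0.32, adjusted p = 0.148) was -1.07 with an adjusted p of 0.000314 without it. In HFCFD2W the levels ran from 4.14 to 6.09 CPM and from 2.25 to 4.83 CPM (-0.65, SE 0.22, adjusted p = 0.0652), and without knockout replicate 3 the value was -0.84 with an adjusted p of 0.0229. Cebpa fl/fl livers of HFCFD8W+T10D varied widely, at 6.49, 4.66, 44.6, 26.4 and 9.35 CPM, against 13.6, 13.9, 6.28, 4.74 and 8.93 CPM in knockout livers. Cebpa fl/fl replicates 3 and 4 were above every knockout liver and the other controls were not (-0.92, SE 0.54, adjusted p = 0.274). Of 13 other angiopoietin-like family and lipase genes, Lpl, which encodes lipoprotein lipase, rose in all 3 experiments by 1.87, 2.18 and 2.33 on the log2 scale (SE 0.16 in HFCFD2W, with adjusted p of 1.34e-05, 3.06e-05 and 3.41e-08). In HFCFD2W Angptl4, an inhibitor of lipoprotein lipase, rose as well (1.12, adjusted p = 0.00103). In HFCFD12W+T10W, where 51.1% of all genes passed and 23.8% fell, 4 of 12 rose, with Angptl7 at 2.25 (adjusted p = 0.0137), and 7 fell, with a median of -0.4486.

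Selenop, the selenium carrier, was the most abundant gene and changed little on the TMM scale. In HFCFD2W it stood at 8869, 8278, 7561, 8916 and 8595 CPM in Cebpa fl/fl and at 9266, 10795, 11073, 9437 and 11507 CPM in Cebpa ΔHep livers. The ranges did not meet, and the log2 fold change was 0.30 (SE 0.09, adjusted p = 0.0336). It did not pass in the fit of all 6 groups (adjusted p = 0.0613), nor without any 1 of the 5 Cebpa fl/fl replicates or knockout replicate 3, 4 or 6, with values of 0.27 to 0.32 and adjusted p of 0.0501 to 0.0795. HFCFD8W+T10D gave 8798 to 10362 CPM against 8504 to 14144 CPM (0.26, SE 0.18, adjusted p = 0.369), and on library totals alone the value was 0.42 with an adjusted p of 0.0108. HFCFD12W+T10W gave 8164 to 8976 CPM against 7868 to 9137 CPM (0.03, SE 0.08, adjusted p = 0.824). On library totals alone the HFCFD12W+T10W value was 0.40 with an adjusted p of 0.00051, close to the shift of the median of all genes given above. In TPM, which carry no TMM factor, knockout livers lay above Cebpa fl/fl livers without overlap in all 3 experiments. HFCFD2W gave 5165 to 5908 TPM against 3933 to 4266 TPM. HFCFD8W+T10D gave 7185 to 8386 TPM against 4954 to 6139 TPM, and HFCFD12W+T10W 6562 to 8067 TPM against 5152 to 5614 TPM. The share of all genes without overlap in TPM was not taken. Among knockout livers Selenop was lower in HFCFD12W+T10W than in HFCFD8W+T10D, by a log2 difference of -0.46 (adjusted p = 0.00201). Of 27 other selenoproteins and genes of selenocysteine use, 24 were tested in HFCFD2W, where 16.7% of all genes passed. There 0 rose and 4 fell, among them Msrb1 (-0.33) and Sephs2 (-0.25). In HFCFD8W+T10D, where 17.1% of all genes passed, 2 of 25 rose, Selenon (0.80) and Gpx4 (0.67), and 5 fell, with Dio1 at -0.86. In HFCFD12W+T10W, where 51.1% of all genes passed and 23.8% fell, 4 of 25 rose, led by Gpx3 (1.78) and Selenon (1.66), and 12 fell, with the deiodinase Dio1 at -1.19.

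Other liver-secreted hormones fell more often than they rose in the longest experiment. Of 26 such genes, all were tested in HFCFD12W+T10W, 2 rose and 15 fell, with a median of -0.5194 against 0.0129 for all genes, and 23.8% of all genes fell there. In HFCFD2W, where 16.7% of all genes passed, 3 of 25 rose, with Igfbp1 (3.39, SE 0.48) and Enho (1.11) the largest, and 4 fell, led by Serpina12 (vaspin) (-1.63). In HFCFD8W+T10D, where 17.1% of all genes passed, Lcn2 (2.20) and Enho (1.97) rose and 4 fell, with Serpina12 at -2.24 and Igfbp2 at -1.30. Serpina12 stood at -3.50 in HFCFD12W+T10W, with Igfals at -1.33 and Fgl1 at -1.13. Hepatocyte markers moved the same way there, 0 of 8 rising and 6 falling, and their part was not tested.

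The order of group means differed from gene to gene, and most neighbouring groups did not differ beyond their spread. Lect2 ran from 135.9 CPM in knockout livers of HFCFD12W+T10W down to 65.4 CPM in those of HFCFD2W, and only the last step, from 94.7 CPM in Cebpa fl/fl livers of HFCFD2W, passed (adjusted p = 0.00487 in the fit of 6 groups). Inhbc ran from 65.3 CPM in Cebpa fl/fl livers of HFCFD2W to 26.6 CPM in knockout livers of HFCFD12W+T10W, with the last step from 36.7 CPM in knockout livers of HFCFD8W+T10D passing (adjusted p = 0.0443). Angptl6 had its only passing step at the bottom as well, from 7.79 CPM in Cebpa fl/fl to 4.10 CPM in knockout livers of HFCFD12W+T10W (adjusted p = 0.00132). Fgf21 was lowest in Cebpa fl/fl livers of HFCFD2W, at 0.539 CPM, and that step from 2.26 CPM in Cebpa fl/fl livers of HFCFD12W+T10W passed (adjusted p = 0.0183). For Angptl8, Inhba, Inhbe, Fst and Selenop 0 of the 5 steps passed. In Cebpa fl/fl livers Angptl8 was higher in HFCFD8W+T10D than in HFCFD2W by 1.82 on the log2 scale (adjusted p = 0.00191) and Inhba by 1.2 (adjusted p = 0.0179), and Inhba was lower in HFCFD12W+T10W than in HFCFD8W+T10D (-2.01, adjusted p = 0.00209, where 11.4% of all genes passed).

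Genes whose log2 CPM followed each member most closely across the 30 libraries were found among 12964 genes, as a description in which the libraries share experiment, genotype and cell makeup. Angptl6 had the closest, Slc27a5, a bile acid and fatty acid CoA ligase (Pearson r = 0.91, and 0.81 after group means were removed), Mdh1 and Selenbp1. Inhbc followed Aars, Derl1 and Msrb1 (r = 0.89 for each), and Inhbe followed Arrdc3, Cldn2 and Ranbp6 (r = 0.77 for each). For Lect2 they were Actg1 (0.87), Ube2e2 (0.86) and Aldh3a2 (0.82), and for Selenop Nme2 (0.83), Bmp1 (0.82) and Itfg1 (0.81). Fst went with Lnx1 (0.80), Angptl8 with Tada1 and Klf10 (0.80 each), Fgf21 with Ear2 and Rcan2 (0.79 each) and Inhba with Zfp141 (0.69). Among the members, Angptl8 and Inhbe had r = 0.58 (0.66 within groups), Angptl6 and Inhbc 0.70 (0.21 within groups), Inhbe and Fst -0.63 (-0.36 within groups), and the neighbours Inhbc and Inhbe 0.31 (-0.15 within groups).

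**Figure D4:**
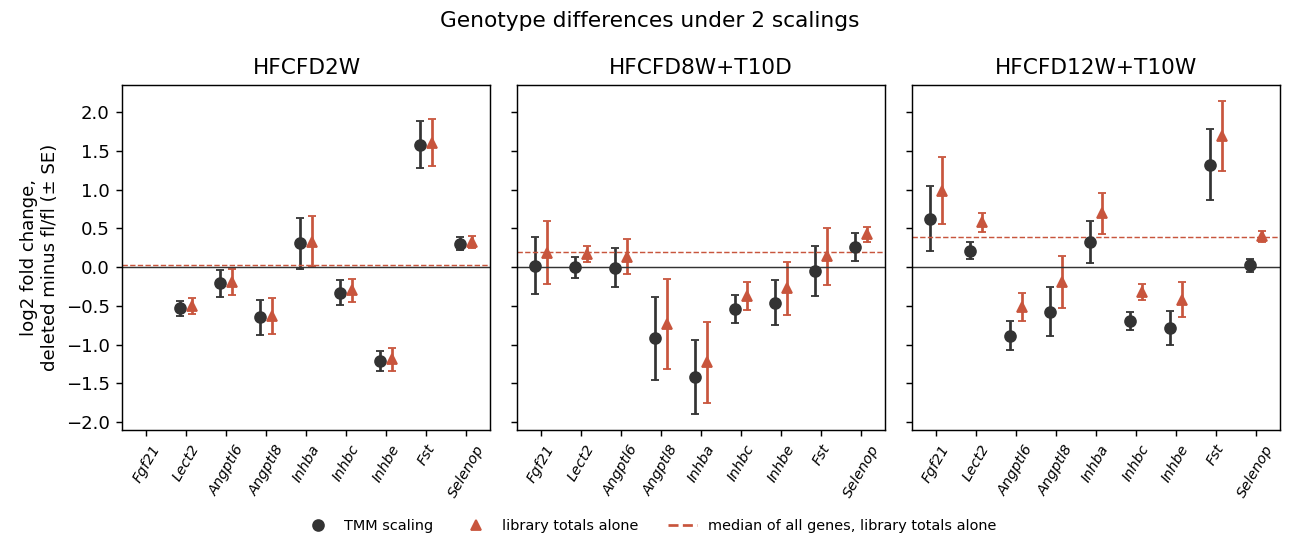
Log2 fold change of knockout against Cebpa fl/fl livers with its standard error, by gene, on TMM scaling (circles) and on library totals alone (triangles), with a dashed line at the median of all genes on library totals. In HFCFD12W+T10W the dashed line is at 0.3837, and Selenop moves from 0.03 to 0.40 while Fst stays above 1.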

How the data were processed

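Liver mRNA of 30 male mice was sequenced as TruSeq Stranded mRNA libraries, 1 per mouse, in 6 groups of 5 taken from the labels. Per the submitters' processing notes the tools were Trimmomatic 0.36, STAR 2.5.1, Picard 1.84, RSEM 1.2.22 and DESeq2 on mm10, and the strand setting of the counting is not given in the sources used here. The authors deposited RSEM expected counts per gene with no normalization in a table per library and a table of all libraries, which differed by 0 counts. Of the expected counts above 0, 11.3% were not whole, and they were rounded. The deposited TPM values, also from RSEM, were used for levels between genes and for the Inhbc to Inhbe ratio. Tables of TMM-normalized counts and of FPKM were not used. All 55450 gene identifiers are those of GENCODE M21.

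The 9 genes and all gene lists were chosen with earlier results of these data known. With R 4.3.3, edgeR 4.0.16 and limma 3.58.1, genes were filtered by filterByExpr and scaled by TMM, and genotypes were compared per experiment in quasi-likelihood models, with p adjusted by Benjamini-Hochberg (11068, 11990 and 12463 genes tested). Differences between genotype effects and between experiments, and Fgf21 in HFCFD2W, came from 1 fit of 6 groups with 12964 genes. CPM are on the TMM scale of that fit. A gene passed at an adjusted p under 0.05 and was called when it also changed over 2-fold. Ratios were compared by an exact permutation test (scipy 1.17.1). Named genes are the 9 members, Cebpa, for each member the 3 genes of highest Pearson correlation in log2 CPM (prior count 2), and up to 4 passing genes per list with the largest fold change, of which part is printed, and some genes of these lists are not reported here. The edgeR fits per experiment and the interaction between HFCFD12W+T10W and HFCFD2W were tested on simulated data. The other steps were not.

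Alternatives were no low-count filter, DESeq2 size factors, upper quartile scaling, DESeq2 1.42.0, a joint fit, the replicate number as a block, no fold minimum, another pseudocount or CPM for the ratio, and each liver left out. Library totals with no TMM scaling, and the fits of Fgf21 in HFCFD2W, were added after seeing the data. Same-number livers had correlations of -0.23 to 0.16 over the 2000 most variable genes. Livers of different numbers were not compared, so whether the numbers pair livers was not settled. The 60 pairs of libraries within groups differed by 7.45 to 65.0 in chi-square per degree of freedom, so none was a duplicate. The labels number biological replicates. Library totals of 7996123 to 10257347 counts leave Fst and Fgf21 at few counts, which limits their precision. The lists not described elsewhere were endothelial markers (0, 2 and 4 of 8 passing in the 3 experiments in order) and lymphocyte markers (0 of 2, 1 of 3 and 3 of 4). Of all genes 16.7%, 17.1% and 51.1% passed in the same order.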

Additional observations from a re-analysis of the deposited data

Results flagged for a closer look

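In 3 of the 54 combinations of gene and group, 1 liver stood apart from the other 4 by Dixon's criterion on log2 CPM. Chance alone gives about 1 in 20 groups. They were Fgf21 in knockout replicate 1 of HFCFD8W+T10D at 7.96 CPM, where the others lay between 3.68 and 4.44 CPM, Angptl8 in knockout replicate 5 of HFCFD12W+T10W at 12.6 CPM, where the others lay between 3.55 and 4.62 CPM, and Inhbc in Cebpa fl/fl replicate 4 of HFCFD12W+T10W at 56.7 CPM, where the others lay between 39.9 and 43.0 CPM. The genotype effect differed between experiments by a test of the difference itself for 2 genes, 1 of 9 in each of 2 interactions. Inhba had an interaction of -1.74 between HFCFD8W+T10D and HFCFD2W (edgeR adjusted p = 0.0491), where 11.2% of all genes passed. Lect2 had an interaction of 0.70 between HFCFD12W+T10W and HFCFD2W (edgeR adjusted p = 0.00359), where 30.7% of all genes passed. The Inhba value rests in part on Cebpa fl/fl replicate 3 of HFCFD8W+T10D, without which it was -1.07 with an adjusted p of 0.154. It did not pass in 14 of the 20 fits that left out 1 liver. Nor did it pass with upper quartile scaling, with the replicate block or on library totals alone.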

How the results depend on the processing

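The genotype differences of Inhbe and Lect2 in HFCFD2W and of Inhbc and Angptl6 in HFCFD12W+T10W, and the interaction of Lect2 between HFCFD12W+T10W and HFCFD2W, kept their direction and passed under each alternative run and without each liver. The cause of the changes below was not tested. Dropping the fold minimum, which by construction adds genes, gave 4 genes called in HFCFD2W and 4 in HFCFD12W+T10W in place of 2 and 1. In HFCFD8W+T10D, where 0 were called, no low-count filter, DESeq2 and the joint fit each called 1, Inhba. DESeq2 passed 3 genes in the interaction of HFCFD8W+T10D with HFCFD2W in place of 1, and 1 in that of HFCFD12W+T10W with HFCFD8W+T10D in place of 0. With the replicate block, 1 gene was called in HFCFD2W, since Fst had 1.29 with an adjusted p of 0.0637, and 0 passed the interaction of HFCFD8W+T10D with HFCFD2W. With that block, Inhbc in HFCFD8W+T10D (-0.52, adjusted p = 0.0235) and Angptl8 (-0.69, adjusted p = 0.0307) and Lect2 (0.21, adjusted p = 0.0367) in HFCFD12W+T10W passed, and Selenop in HFCFD2W did not (0.28, adjusted p = 0.172). The replicate block also turned the interactions of Angptl8 to 0.016 (HFCFD8W+T10D minus HFCFD2W), -0.16 (HFCFD12W+T10W minus HFCFD8W+T10D) and -0.15 (HFCFD12W+T10W minus HFCFD2W) and that of Fst in the last to 0.094. Upper quartile scaling turned Lect2 and Angptl6 in HFCFD8W+T10D to 0.031 and 0.029, and the interaction of Inhba between HFCFD12W+T10W and HFCFD2W became 0.10, or 0.0034 with DESeq2 size factors. On library totals alone, Lect2 was 0.17, Angptl6 0.13 and Fst 0.14 in HFCFD8W+T10D, the interaction of Selenop 0.10 (HFCFD8W+T10D minus HFCFD2W), that of Inhbc 0.048 (HFCFD12W+T10W minus HFCFD8W+T10D), and those of Inhba, Fst and Selenop 0.37, 0.090 and 0.072 (HFCFD12W+T10W minus HFCFD2W), and 5 genes in place of 3 differed between the Cebpa fl/fl livers of HFCFD8W+T10D and HFCFD2W. The joint fit gave -0.017 for Selenop in HFCFD12W+T10W. None of these reversed values passed the test. Leaving out 1 liver gave 0 to 1 genes called in HFCFD8W+T10D and 0 to 2 in HFCFD12W+T10W. It gave 0 to 2, 0 to 1 and 1 to 2 passing in the interactions of HFCFD8W+T10D with HFCFD2W, HFCFD12W+T10W with HFCFD8W+T10D and HFCFD12W+T10W with HFCFD2W, and 1 to 2 between the Cebpa fl/fl livers of HFCFD12W+T10W and HFCFD8W+T10D. Values whose sign turned ran from -0.23 to 0.41 for Fgf21, -0.062 to 0.084 for Lect2, -0.24 to 0.18 for Angptl6 and -0.21 to 0.12 for Fst in HFCFD8W+T10D, and from -0.011 to 0.050 for Selenop in HFCFD12W+T10W. Among interactions they ran from -0.036 to 0.39 for Angptl6, -0.53 to 0.34 for Angptl8 and -0.14 to 0.045 for Selenop (HFCFD8W+T10D minus HFCFD2W), from -0.28 to 0.55 for Angptl8 (HFCFD12W+T10W minus HFCFD8W+T10D), and from -0.44 to 0.22 for Angptl8, -0.33 to 0.31 for Inhba and -0.56 to 0.13 for Fst (HFCFD12W+T10W minus HFCFD2W). The ratio difference ran from -0.31 to 0.16 in HFCFD8W+T10D and from -0.21 to 0.18 in HFCFD12W+T10W. Low counts of Fst, Fgf21 and Inhba limit what these libraries can show, and 5 livers a group limit all comparisons.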
